A study of Mus musculus with 40 samples.

Results

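The Nr4a orphan nuclear receptors Nr4a1, Nr4a2 and Nr4a3 were followed through the amygdala transcriptome of mice that differed in microbial colonisation and in recent social experience. Their 3 rows were taken by symbol from a table of 43629 genes, and none of the 3 genes overlaps another gene of the annotation. All animals were male Swiss Webster mice, an outbred stock, 10 weeks old. Conventionally raised mice formed the groups CON and CON-SI, mice kept germ-free formed GF and GF-SI, and mice born germ-free and moved after weaning onto bedding used by conventional mice formed exGF and exGF-SI. The naïve groups CON, GF and exGF were 4 libraries each, made from pooled RNA of several animals, whereas the groups CON-SI (8 libraries), GF-SI (12 libraries) and exGF-SI (8 libraries) were single animals killed an hour after a three-chamber social interaction test (SI). Naïve and SI libraries therefore also differ as pools and single animals, and these 2 differences cannot be told apart. RNA was depleted of ribosomal RNA before sequencing, and the amygdala came from the left hemisphere.

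NR4A proteins are transcription factors of the nuclear receptor family that work without a known physiological ligand, so that their activity follows largely from how much of them is made. In neurons their genes are immediate early genes: calcium influx and cAMP act through CREB, MEF2 and SRF on the promoters within minutes of activity, with no need for new protein. The receptors bind as monomers to the NBRE element, and Nr4a1 and Nr4a2 also pair with retinoid X receptors. Nr4a2 is in addition a constitutive marker of certain neurons, among them midbrain dopamine cells and cells of the claustrum, endopiriform nucleus and deep cortex, which lie beside the amygdala.

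Since induction of these genes starts at their promoters, the 250 bases before each RefSeq start site are shown (GRCm38.p6), read 5′ to 3′ on the strand of the gene, with the CRE half-site TGACG or its reverse complement CGTCA in capitals. The CRE is the element that CREB binds. The windows are chr15:101266596-101266845 (plus strand) for Nr4a1, chr2:57124004-57124253 (minus strand) for Nr4a2 and chr4:48045055-48045304 (plus strand) for Nr4a3. Each stands for 1 start site of its gene, and other start sites are not shown. The Nr4a1 window lies inside the annotated gene (chr15:101254269-101274795), and the Nr4a3 window runs past the annotated gene start at 48045153.
Nr4a1: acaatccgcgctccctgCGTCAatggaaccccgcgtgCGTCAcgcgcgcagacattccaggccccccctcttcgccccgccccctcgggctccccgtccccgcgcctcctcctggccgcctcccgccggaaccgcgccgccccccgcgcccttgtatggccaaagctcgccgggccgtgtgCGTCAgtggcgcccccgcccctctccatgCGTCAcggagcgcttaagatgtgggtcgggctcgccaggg
Nr4a2: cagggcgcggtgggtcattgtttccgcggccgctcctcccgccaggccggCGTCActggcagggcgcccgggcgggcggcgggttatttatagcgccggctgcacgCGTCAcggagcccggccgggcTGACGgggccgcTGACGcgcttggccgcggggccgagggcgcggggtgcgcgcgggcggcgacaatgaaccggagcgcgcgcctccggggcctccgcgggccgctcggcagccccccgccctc
Nr4a3: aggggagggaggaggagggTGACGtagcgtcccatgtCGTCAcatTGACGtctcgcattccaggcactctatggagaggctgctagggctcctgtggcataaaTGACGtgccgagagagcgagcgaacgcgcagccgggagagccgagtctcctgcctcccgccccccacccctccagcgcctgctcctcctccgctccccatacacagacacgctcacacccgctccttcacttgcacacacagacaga
Each of the 3 windows held 4 half-sites. Of 32851 windows of this kind, from 27025 genes, 17.8% held at least 1 half-site and 0.137% held at least 4. The windows of the members were rich in G and C, at 74.4% for Nr4a1, 80% for Nr4a2 and 63.6% for Nr4a3, against a median of 52.4%, and among the 9178 windows of at least 60% G and C the share with at least 4 half-sites was 0.37%. Among 38 windows of the rapid immediate early genes listed further on, 65.8% held at least 1 half-site and 0 held 4. Counted from the start site, the half-sites lay between positions -233 and -36 in Nr4a1, between -200 and -107 in Nr4a2 and between -231 and -143 in Nr4a3. Full CRE sites (TGACGTCA), NBRE elements (AAAGGTCA) and CArG boxes, the element of SRF, were searched on both strands in the same windows and 0 were found in any of the 3, while 1.55%, 1.34% and 1.47% of all windows held them. These are matches of letters and not measured binding sites.

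Totals per library ranged from 7291810 to 19961958 counts, and the fewest counts of a member in any library were 88 for Nr4a1, 371 for Nr4a2 and 187 for Nr4a3. Gm42418, a gene that overlaps ribosomal RNA sequence, took over 5% of the counts in 5 libraries (the animal exGF-S7 and the pools exGF-P2, CON-P3, exGF-P1 and CON-P1) and at most 1.75% in the other 35. Markers of amygdala nuclei were present in every group, with 12 of 12 listed genes detected, and their summed level ran from 502 to 969 CPM, the count of a gene scaled to the size of its library. Nr4a2 takes part in the midbrain dopamine programme, of which 10 markers were listed, with a summed level of 16.8 to 42.0 CPM. Foxa2 had no count in any library, and Pitx3, En1 and Foxa1 were under 0.1 CPM on average. Th, Slc6a3, Slc18a2 and Lmx1b averaged 0.414, 0.180, 0.305 and 0.177 CPM. Ddc and Aldh1a1 were higher, at 3.42 and 25.4 CPM.

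Nr4a3 was higher after social interaction in all 3 colonisation states. Values are CPM after TMM scaling, which corrects totals for a few very abundant genes. Nr4a3 lies on chr4:48045153-48086447, plus strand. In CON its naïve pools read 33.7, 42.6, 31.6 and 28.7 CPM, and in CON-SI the lowest, median and highest animals read 50.3, 68.7 and 80.9 CPM. In GF the pools read 18.8, 26.5, 23.6 and 32.1 CPM, and in GF-SI the animals ran from 64.0 over a median of 76.2 to 86.6 CPM. In these 2 colonisation states every SI animal lay above every naïve pool, which held for 2.35% of 16111 genes in CON and for 1.9% in GF. In exGF the pools read 57.4, 60.8, 36.2 and 31.1 CPM, and in exGF-SI the animals ran from 58.1 over a median of 79.1 to 111 CPM. Here the groups overlapped, with 6 of 8 animals above the highest pool, while all 8 lay above the pools' median (2.75% of genes had every exGF-SI animal above every pool). The overlap was that of 1 pool, exGF-P2, with the animals exGF-S4 and exGF-S7, and exGF-P1 lay just below the lowest animal. exGF-P1, exGF-P2 and exGF-S7 are all rRNA-rich.

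**Figure D1:**
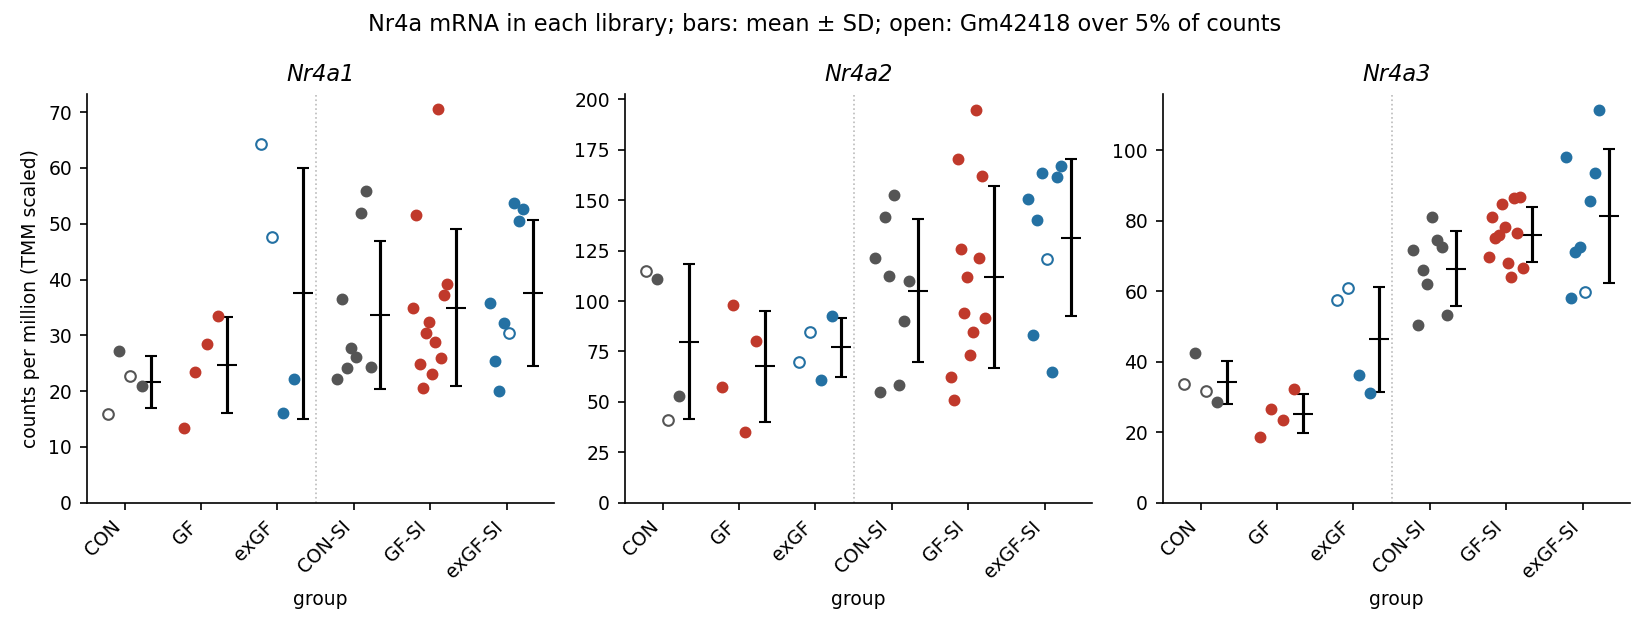
Level of each Nr4a member in each of the 40 libraries, in TMM-scaled CPM, for the 6 groups; points are libraries, bars are means ± SD, and open points mark the libraries with over 5% Gm42418. All CON-SI and GF-SI animals lie above all naïve pools of their state for Nr4a3 but not for Nr4a1 or Nr4a2, and the exGF pools divide into 2 high open points and 2 low filled ones for Nr4a1 and Nr4a3.

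In the edgeR quasi-likelihood test, with Benjamini-Hochberg adjustment over all genes and a threshold of 0.1 on the adjusted p, Nr4a3 rose in all 3 colonisation states. In CON-SI the log2 fold change was 0.96 ± 0.14 (SE), or 1.94-fold, with an adjusted p of 0.00458. In GF-SI it was 1.59 ± 0.12, or 3.0-fold, with an adjusted p of 8.25e-07, the smallest p of the 15443 genes tested. In exGF-SI it was 0.82 ± 0.20, or 1.77-fold, with an adjusted p of 0.0454. Of all genes tested, 3.72%, 13.7% and 7.61% passed in the 3 comparisons (CON-SI, GF-SI, exGF-SI), and the mean of the 3 responses was 1.12 ± 0.10 (adjusted p = 7.62e-11, where 26.7% of genes passed). Without the rRNA-rich libraries, which leaves 2 pools in CON and in exGF, the log2 fold change of Nr4a3 was 0.90 with an adjusted p of 0.137 in CON-SI and 1.33 with an adjusted p of 0.0594 in exGF-SI. The call in exGF-SI was also lost when exGF-P3 or exGF-P4 was left out, at log2 fold changes of 0.72 and 0.66.

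The size of the Nr4a3 response differed in value between colonisation states, and the difference itself did not pass the test. The response in GF exceeded that in CON by 0.63 ± 0.23 on the log2 scale (95% interval 0.17 to 1.09, p = 0.00847 before and 0.173 after adjustment, edgeR over 6 groups and 40 libraries). The response in exGF was below that in GF by a difference of -0.77 ± 0.23 (-1.23 to -0.31, p = 0.00152 before and 0.232 after adjustment), which was -0.28 without the rRNA-rich libraries. For exGF against CON the difference was -0.14 ± 0.23 (-0.61 to 0.33), which turned to 0.42 without the rRNA-rich libraries. Genes called in these 3 contrasts made up 0.0931%, 0% and 0% of 16111, in the order given for GF against CON, exGF against GF and exGF against CON. At an unadjusted p under 0.05 the 3 contrasts held 2550, 1839 and 939 genes in the same order, and DESeq2 called 482, 43 and 1.

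Among naïve groups Nr4a3 was lowest in GF and highest in exGF by their means, and no difference passed the test. The place of exGF above CON was lost without the rRNA-rich libraries (log2 difference -0.085). Naïve GF pools averaged 25.2 ± 5.59 CPM (SD, n = 4), CON pools 34.1 ± 6.004 and exGF pools 46.4 ± 14.9. The order of group means then ran CON-SI at 66.4 ± 10.6 CPM (n = 8), GF-SI at 76.1 ± 7.75 (n = 12) and exGF-SI at 81.3 ± 19.1 (n = 8). Of the neighbours in this order, GF and CON differed by more than the larger of their SDs, as did exGF and CON-SI, and the other neighbours did not. In the edgeR fits of naïve groups Nr4a3 was lower in GF than in CON by a log2 difference of -0.43 ± 0.16 (adjusted p = 0.393) and higher in exGF than in GF by 0.86 ± 0.22 (adjusted p = 0.391). The second of these passed with DESeq2 (0.87, adjusted p = 0.0188) and without the filter on low counts (0.86, adjusted p = 0.00663), and its size without the rRNA-rich pools was 0.41. After social interaction the 3 states lay close together, with log2 differences of 0.19 ± 0.08 for GF-SI over CON-SI, 0.29 ± 0.13 for exGF-SI over CON-SI and 0.09 ± 0.10 for exGF-SI over GF-SI (adjusted p = 0.258, 0.338 and 0.722). Genes called among naïve groups made up 0.142% (CON against GF), 0.104% (CON against exGF) and 0% (GF against exGF) (in GF-exGF 1382 genes had an unadjusted p under 0.05, and DESeq2 called 72), and 1.10%, 1.31% and 0.0995% in the 3 SI comparisons.

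**Figure D2:**
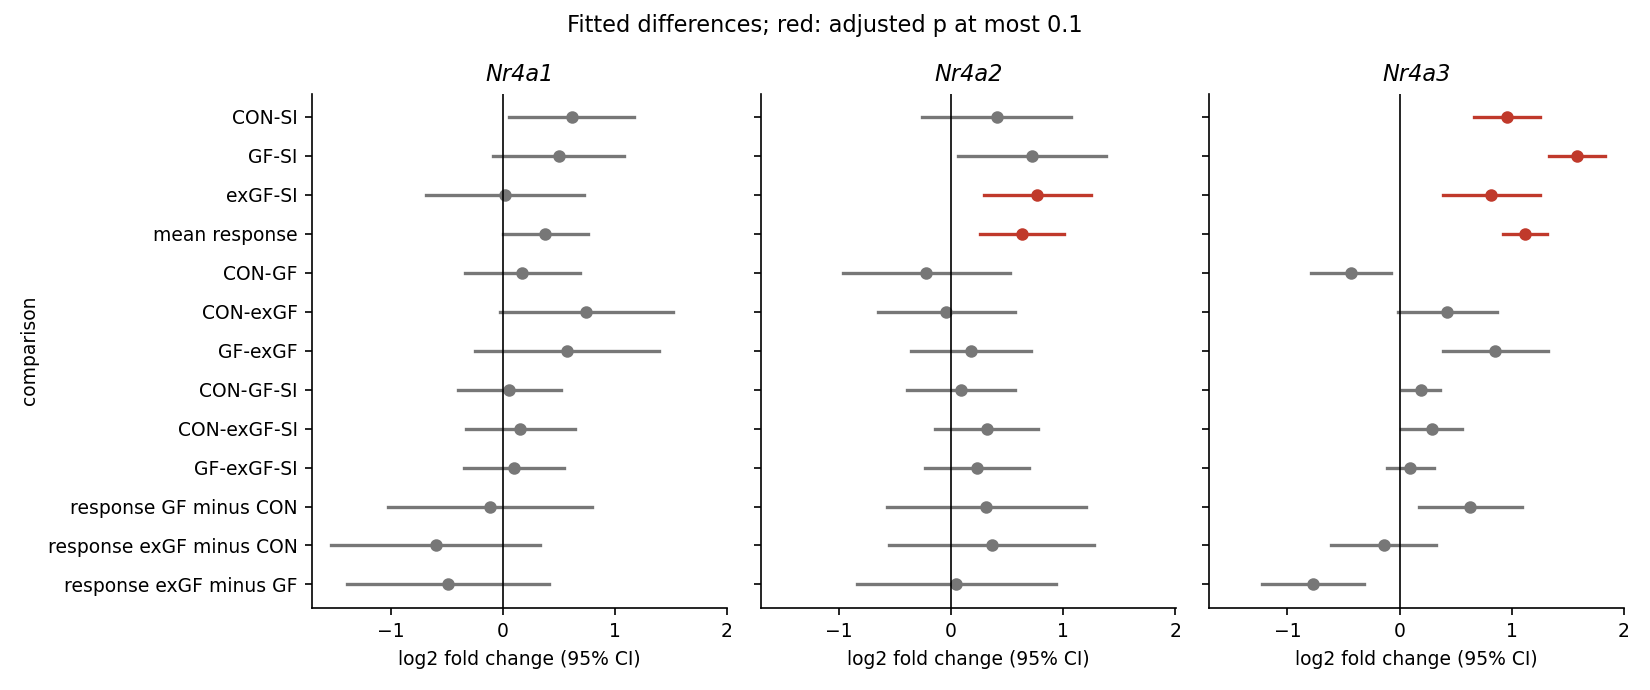
Fitted log2 fold change of each Nr4a member with its 95% confidence interval in 13 comparisons: SI against naïve in CON, GF and exGF, the mean of these responses, the naïve groups and the SI groups among themselves (the second group minus the first), and the differences between responses; red marks an adjusted p of at most 0.1. The intervals of Nr4a3 in CON-SI, GF-SI and exGF-SI lie above 0, whereas for Nr4a1 none of the 13 comparisons is red.

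Nr4a2 was the most abundant member. Per kilobase of exonic length, the scale on which genes can be compared, its naïve CON level was 19.7 ± 9.45 CPM per kb (SD, n = 4), against 6.17 ± 1.33 for Nr4a1 and 5.70 ± 1.00 for Nr4a3. In GF-SI (n = 12) Nr4a2 stood at 27.6 ± 11.1 CPM per kb, Nr4a3 at 12.7 ± 1.30 and Nr4a1 at 9.97 ± 3.99. Nr4a3 was thus the least abundant member in CON and the second in GF-SI by these means, but in both it differed from Nr4a1 by less than the larger SD. CON and GF-SI differ in colonisation as well as in social experience. Naïve GF read 4.22 ± 0.933 CPM per kb for Nr4a3 and 7.04 ± 2.44 for Nr4a1 (n = 4). CON-SI read 11.1 ± 1.77 and 9.58 ± 3.785 (n = 8).

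Nr4a2 rose in exGF-SI and in the mean response and varied widely between libraries of a group. The gene lies on chr2:57106830-57124003, minus strand. In CON the pools read 115, 111, 40.8 and 53.1 CPM, and in CON-SI the lowest, median and highest animals read 54.7, 111 and 153 CPM. In GF the pools read 57.5, 98.2, 34.8 and 80.2 CPM, and in GF-SI the animals ran from 50.7 over a median of 103 to 195 CPM. The groups overlapped in both states, with 3 of 8 CON-SI and 6 of 12 GF-SI animals above the highest pool. In exGF the pools read 69.7, 84.7, 60.8 and 92.8 CPM, and in exGF-SI the animals ran from 64.8 over a median of 145 to 167 CPM, with 6 of 8 animals above the highest pool. The log2 fold change was 0.40 ± 0.31 in CON-SI (adjusted p = 0.554), 0.72 ± 0.31 in GF-SI (adjusted p = 0.166) and 0.77 ± 0.23 in exGF-SI (adjusted p = 0.0738), and 0.63 ± 0.19 for the mean response (adjusted p = 0.0127, edgeR). The call in exGF-SI did not hold in the fit over 6 groups (adjusted p = 0.174), without the rRNA-rich libraries (0.79, adjusted p = 0.283), or without any 1 of exGF-P1, exGF-P2, exGF-P3, exGF-P4, exGF-S3, exGF-S6 and exGF-S10, whereas that of the mean response held in each of its 5 alternatives (adjusted p from 0.00811 to 0.0639). Group means ran from 67.7 ± 27.5 CPM in GF over exGF (77.0), CON (79.9), CON-SI (105) and GF-SI (112) to 132 ± 38.8 CPM in exGF-SI, and no neighbours in this order differed by more than the larger of their SDs. No comparison of Nr4a2 between colonisation states passed, and the log2 differences among naïve groups and among SI groups lay between -0.22 and 0.32. The differences between responses were 0.31 ± 0.44 for GF minus CON, 0.36 ± 0.45 for exGF minus CON and 0.05 ± 0.44 for exGF minus GF.

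Nr4a1, which lies on chr15:101254269-101274795, plus strand, did not pass the test in any comparison. In CON the pools read 15.8, 27.1, 22.7 and 20.9 CPM and the CON-SI animals ran from 22.1 over a median of 26.9 to 55.9 CPM, with 4 of 8 animals above the highest pool. In GF the pools read 13.4, 23.5, 28.5 and 33.5 CPM and the GF-SI animals ran from 20.6 over a median of 31.4 to 70.5 CPM, with 5 of 12 above the highest pool. In exGF the pools read 64.3, 47.6, 16.0 and 22.2 CPM and the exGF-SI animals ran from 20.02 over a median of 33.95 to 53.7 CPM, with 0 of 8 above the highest pool. The 2 high exGF values, of exGF-P1 and exGF-P2, are again those of the rRNA-rich pools, and the other pools of exGF lay within the range of CON. The part of ribosomal RNA in these values was not tested beyond leaving the libraries out.

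The log2 fold change of Nr4a1 was 0.62 ± 0.26 in CON-SI (adjusted p = 0.255), 0.50 ± 0.28 in GF-SI (adjusted p = 0.285) and 0.02 ± 0.33 in exGF-SI (adjusted p = 0.980). The interval in exGF-SI reached from -0.69 to 0.72 and so included responses as large as those of CON and GF. Without the rRNA-rich libraries the value in exGF-SI was 1.01 (adjusted p = 0.207) and the mean response moved from 0.38 ± 0.19 (adjusted p = 0.152) to 0.66 (adjusted p = 0.0347), which passed. The same libraries set the direction among naïve groups: exGF exceeded CON by 0.74 ± 0.35 and GF by 0.57 ± 0.38 with all pools, and lay below them by differences of -0.32 and -0.36 without the rRNA-rich ones. Group means ran from 21.6 ± 4.66 CPM in CON over GF (24.7), CON-SI (33.6), GF-SI (35.0) and exGF (37.5) to 37.6 ± 13.1 CPM in exGF-SI, with no neighbours beyond the larger of their SDs. Differences between SI groups were at most 0.16 on the log2 scale.

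Ratios of 2 members within a library do not depend on how libraries are scaled, and they were compared between naïve and SI libraries by 2-sided exact permutation tests (9 tests). The log2 ratio of Nr4a3 to Nr4a1 counts was 0.08 ± 0.32 in GF (SD, n = 4) and 1.20 ± 0.46 in GF-SI (n = 12), a difference of 1.12 (p = 0.0022, 0.0198 adjusted, exact). In exGF it was 0.46 ± 0.55 and in exGF-SI 1.16 ± 0.36, a difference of 0.70 (p = 0.0323, 0.0970 adjusted, exact), which was 0.35 without the rRNA-rich libraries (adjusted p = 0.533, exact). In CON it moved from 0.67 ± 0.29 to 1.05 ± 0.54 by 0.38 (adjusted p = 0.415, exact). The log2 ratio of Nr4a3 to Nr4a2 moved by 0.89 in GF (p = 0.0132, 0.0593 adjusted, exact), by 0.50 in CON and by 0.11 in exGF (adjusted p = 0.364 and 0.841, exact; 0.55 in exGF without the rRNA-rich libraries, adjusted p = 0.5), and the call in GF did not hold without GF-P1 or GF-P2 (0.80 and 0.71). Ratios of Nr4a2 to Nr4a1 moved by -0.12 in CON, 0.23 in GF and 0.58 in exGF and none passed. Whether this shift differed between colonisation states was not tested.

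**Figure D3:**
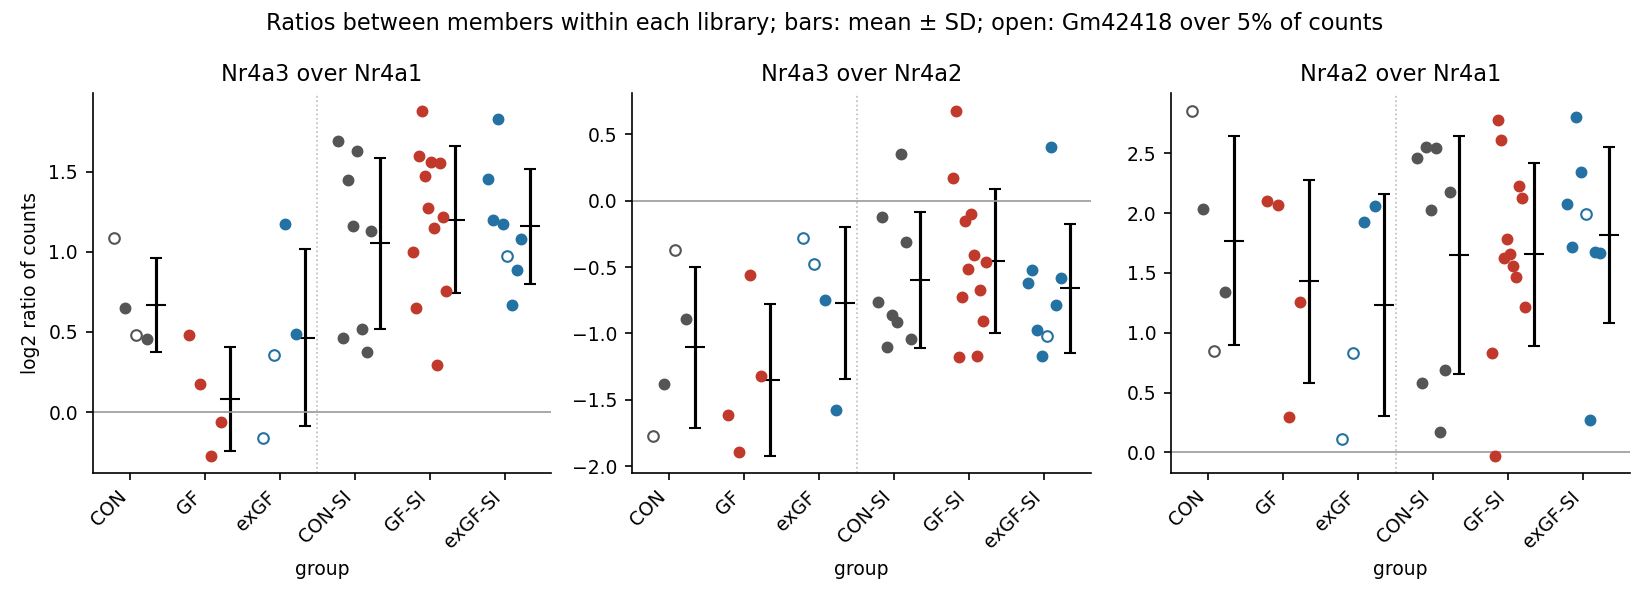
Log2 ratio of the counts of 2 Nr4a members within each library, by group; bars are means ± SD and open points mark the libraries with over 5% Gm42418. For Nr4a3 over Nr4a1, 11 of 12 GF-SI animals lie above the highest naïve GF pool.

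Other genes whose levels ran most like those of each member differed from member to member. Over the 40 libraries, among 14113 genes with a mean of at least 1 CPM, the 5 genes with the highest Pearson r of log2 CPM to Nr4a1 were Arc (0.90), Dusp6 (0.88), Tiparp (0.81), Egr1 (0.81) and Egr2 (0.81). Arc encodes a cytoskeletal protein of active synapses, Dusp6 a phosphatase of ERK, and Egr1 and Egr2 are zinc finger transcription factors. After removal of the 6 group means these r were 0.94, 0.89, 0.82, 0.89 and 0.84, so that Nr4a1 ran with these genes from library to library within groups. For Nr4a2 the 5 genes were Rxfp1 (0.87), a relaxin receptor, Cd44 (0.83), a hyaluronan receptor, Fermt1 (0.82), Cbln4 (0.81), a secreted synaptic protein, and Oxr1 (0.80), and within groups r was 0.82 to 0.94. None of these 5 is among the immediate early genes listed here. For Nr4a3 they were P4ha1 (0.89), Nufip2 (0.89), Chordc1 (0.89), Uba6 (0.88) and Hsph1 (0.88), of which Hsph1 and Chordc1 encode a chaperone and a chaperone partner, and within groups r fell to between 0.44 and 0.61. Between members r over the 40 libraries was 0.57 for Nr4a1 with Nr4a3, 0.57 for Nr4a2 with Nr4a3 and 0.09 for Nr4a1 with Nr4a2. These coefficients describe libraries that share depth, composition and group differences, and carry no test.

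**Figure D4:**
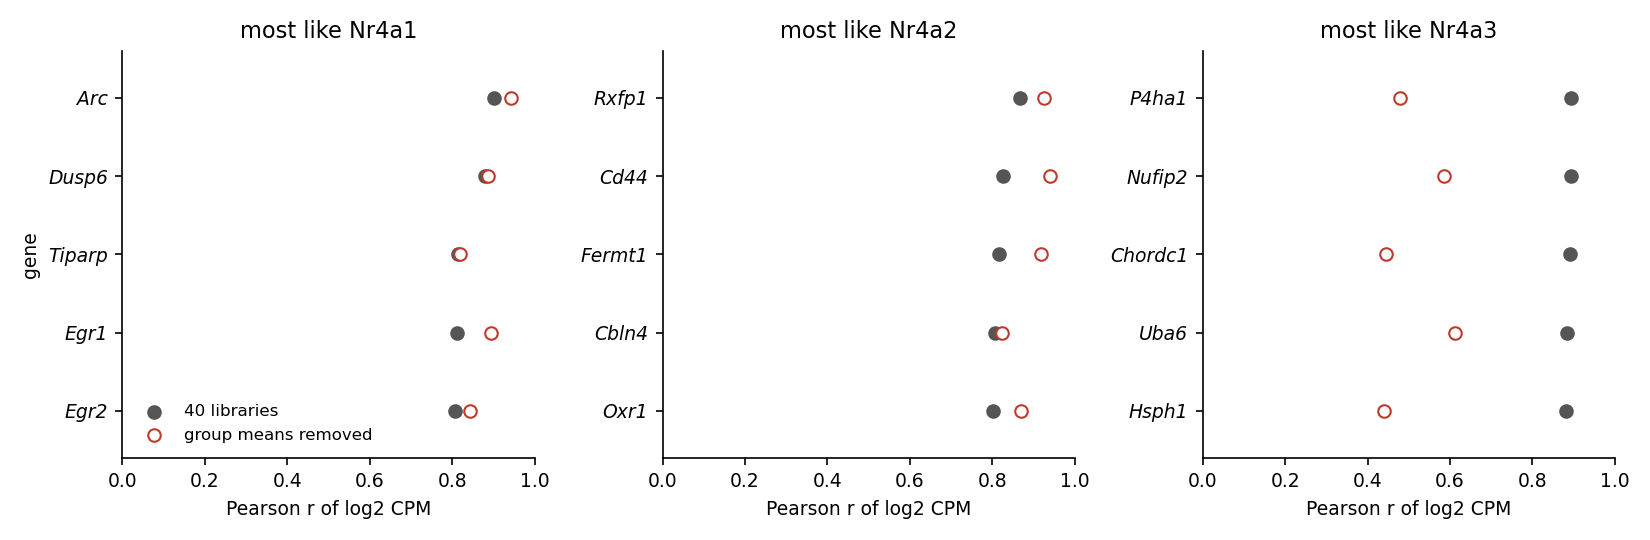
Pearson r of log2 CPM between each Nr4a member and the 5 genes most like it, over the 40 libraries (filled) and after the group means were removed (open). For Nr4a1 and Nr4a2 the open points lie at or above the filled ones, and for Nr4a3 they lie far below them.

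Within the SI groups, where each library is 1 animal, 27 correlations of the members with each other and with summed markers of neighbouring regions were computed on log2 CPM. Nr4a2 followed the markers of claustrum, endopiriform nucleus and deep cortex (12 genes in the table) in CON-SI, with r = 0.92 and rho = 0.98 (n = 8, exact permutation p = 0.000149 and 0.000397, 0.00402 and 0.0107 adjusted over 27), and r was 0.97 without the 2 animals farthest from the median marker sum. In exGF-SI r was 0.88 and rho 0.76 (n = 8, adjusted p = 0.115 and 0.248, exact permutation) and in GF-SI 0.71 and 0.63 (n = 12, adjusted p = 0.115 and 0.248, permutation), where r was 0.39 without the farthest 2. The sum is carried by Gng2, at 258 CPM on average, and without it r was 0.50, 0.66 and 0.68 (CON-SI, GF-SI, exGF-SI), none of them past the threshold after adjustment. The marker sums had medians of 439, 445 and 477 CPM in CON-SI, GF-SI and exGF-SI against 450, 478 and 481 CPM in CON, GF and exGF, and 0 of 11 tested genes of the list passed in any SI comparison. In bulk tissue, more cells of a type and more RNA per cell cannot be told apart. None of the other 26 relations passed. Relations of the members with the summed oligodendrocyte markers, added after the data were seen, did not pass either. Adjusted together with the relations above, their p was at least 0.3466 for r and 0.3455 for rho (permutation). Nr4a1 and Nr4a3 had r = 0.74 in exGF-SI (rho = 0.76, adjusted p = 0.278 and 0.248, exact permutation), and Nr4a1 and Nr4a2 had r = -0.72 in CON-SI (rho = -0.69, adjusted p = 0.364 and 0.312, exact permutation).

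Among rapid immediate early genes, the class to which the members belong, 15 of 33 tested were higher and 1 lower in CON-SI, 15 of 34 and 1 in GF-SI, and 5 of 33 and 1 in exGF-SI. Their median log2 fold changes were 0.67, 0.52 and 0.39, against -0.0058, -0.0099 and -0.00064 over all genes tested, of which 2.35%, 7.87% and 4.6% were higher, while 1.37%, 5.86% and 3.01% were lower. In CON-SI, Fosb rose by 2.58 ± 0.23, Fosl2 by 1.29 ± 0.13, Homer1 by 1.17 ± 0.19 and Sik1 by 1.01 ± 0.15, and the value of Nr4a3 (0.96) lay below each of them. In GF-SI, Fosb rose by 1.53 ± 0.20, Fosl2 by 1.35 ± 0.13, Homer1 by 0.99 ± 0.18 and Nfil3 by 0.88 ± 0.15, and Nr4a3 (1.59) lay above each. In exGF-SI, Fosb rose by 1.96 ± 0.25, Homer1 by 1.17 ± 0.26, Nfil3 by 1.06 ± 0.23 and Fosl2 by 1.03 ± 0.23, all above Nr4a3 (0.82). Fosb and Fosl2 encode AP-1 subunits, Homer1 a synaptic scaffold, Sik1 a kinase that restrains CREB coactivators and Nfil3 a bZIP repressor. Of the genes that ran with Nr4a1 across libraries, Arc rose by 1.86 ± 0.42 and Egr1 by 1.18 ± 0.20 in CON-SI (adjusted p = 0.0402 and 0.0124, edgeR). In GF-SI they rose by 1.24 ± 0.45 and 1.17 ± 0.23 (adjusted p = 0.0957 and 0.00626, edgeR), and in exGF-SI neither passed (adjusted p = 0.215 and 0.198, edgeR). Falls were seen for Btg2 in CON-SI (-0.49) and GF-SI (-0.66) and for Ier2 in exGF-SI (-1.08), both named after their values were seen. Without the rRNA-rich libraries the count of higher genes was 2 in CON-SI and 6 in exGF-SI, beside 26 and 155 of all genes called in either direction. The fit over 6 groups gave 9 higher genes of the list in exGF-SI.

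**Figure D5:**
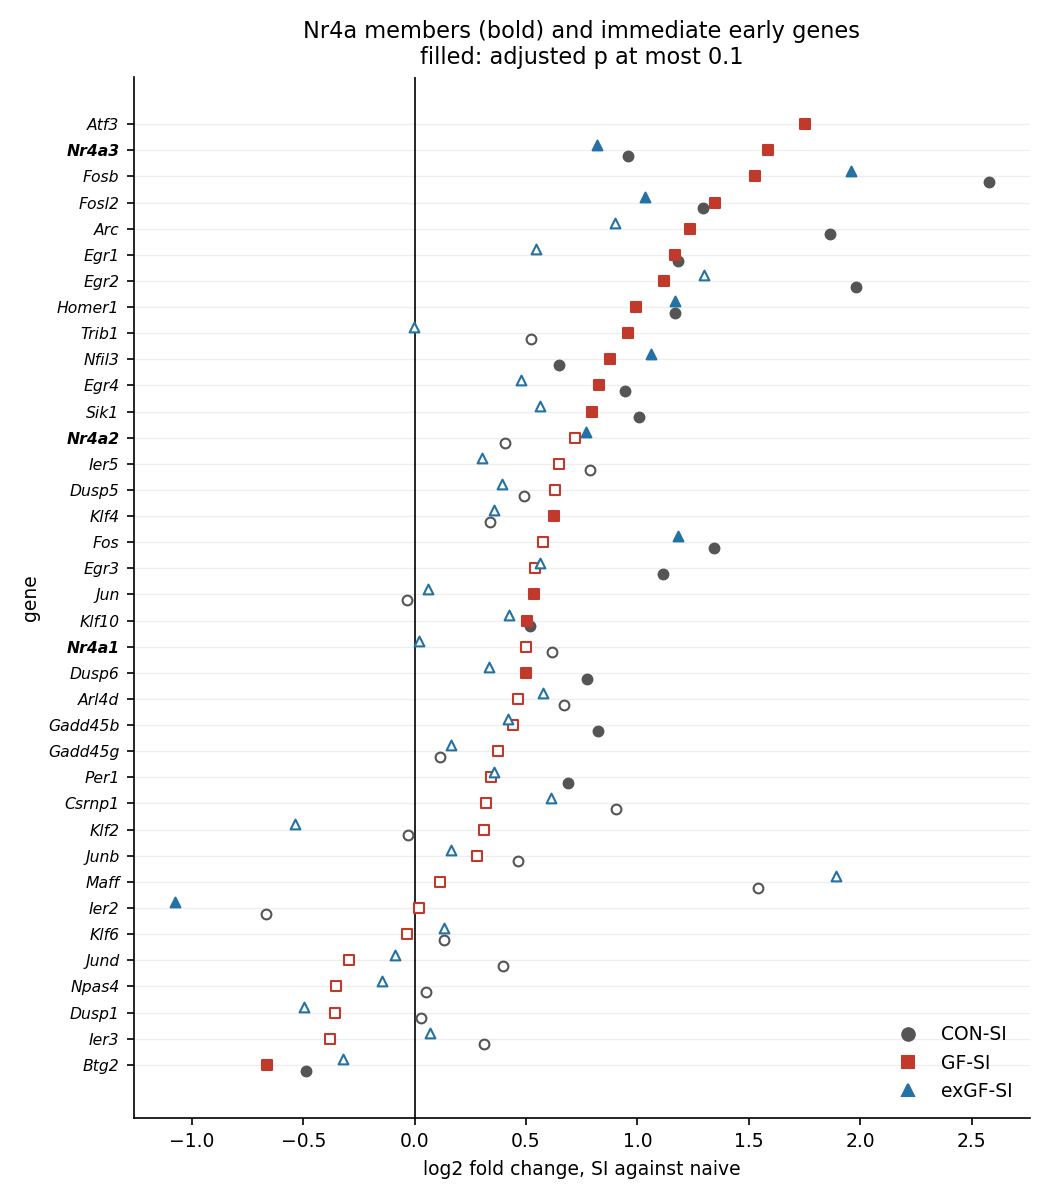
Log2 fold change of SI against naïve in CON, GF and exGF for the Nr4a members (bold) and the rapid immediate early genes tested, in the order of the value in GF; filled symbols have an adjusted p of at most 0.1. Nr4a3 is filled in all 3 states and stands second in GF (1.59).

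Of the genes that carry signals to Nr4a promoters, 2 of 25 were higher and 2 lower in CON-SI, 4 and 1 in GF-SI, and 2 and 2 in exGF-SI, beside 2.35%, 7.87% and 4.6% of all genes higher and 1.37%, 5.86% and 3.01% lower. In CON-SI 0 were higher and 0 lower without the rRNA-rich libraries, and in exGF-SI 1 and 0. Crem, the CREB family member that is itself induced by cAMP, rose by 0.76 ± 0.14, 0.50 ± 0.15 and 0.77 ± 0.19 (CON-SI, GF-SI, exGF-SI). Srf rose by 0.45 ± 0.11, 0.27 ± 0.09 and 0.29 ± 0.08 in the same order. In GF-SI, Creb1 rose by 0.44 ± 0.07 and Elk4, a partner of SRF, by 0.35 ± 0.10, while their values were 0.17 and 0.01 in CON-SI and 0.19 and 0.13 in exGF-SI and did not pass. The falls were those of Camk2a (-0.52 ± 0.13 in CON-SI and -0.51 ± 0.16 in exGF-SI), Rps6ka5 (-0.37 ± 0.10 and -0.32 ± 0.07) and, in GF-SI, Prkaca (-0.20 ± 0.07), 3 kinase genes named after their values were seen. The fall of Prkaca was not called with RLE scaling, without the filter on low counts, or with a correction for GC content and length. Of genes known to be induced by cAMP and CREB, 10 of 20 were higher in CON-SI and 8 of 20 in each of the other 2 comparisons, and 1 was lower, Sst in exGF-SI (-0.54 ± 0.13, named after its value was seen). The counts of higher genes were 3 in CON-SI and 5 in exGF-SI without the rRNA-rich libraries, beside 26 and 155 of all genes called in either direction. Bdnf rose by 0.92 ± 0.12, 1.15 ± 0.13 and 0.92 ± 0.18 in CON-SI, GF-SI and exGF-SI.

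Partners and coregulators of NR4A proteins were examined as a list of 16 genes. In GF-SI Rcor1 rose by 0.30 ± 0.08 and Ncoa3 by 0.27 ± 0.09. In exGF-SI, where 7.61% of all genes passed, 0 of 16 genes of the list did. Rcor1 encodes the CoREST scaffold through which Nr4a2 represses genes, and Ncoa3 a coactivator of nuclear receptors. The retinoid X receptor gene Rxrb had log2 fold changes of 0.21 ± 0.08, 0.10 ± 0.09 and 0.22 ± 0.09, none of which passed.

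Nuclear receptors outside the family were examined as a list of 45 genes. Of all genes tested, 3.72%, 13.7% and 7.61% passed in CON-SI, GF-SI and exGF-SI, and the counts of the list were near these shares. In CON-SI 0 of 32 tested passed, with the smallest p for Nr3c2, the mineralocorticoid receptor (-0.59 ± 0.17, adjusted p = 0.106). In GF-SI, where 7.87% of all genes were higher and 5.86% lower, 2 of 34 were higher, Rara by 0.45 ± 0.10 and Esrrb by 1.21 ± 0.40, and 2 were lower, Nr1d1 by -0.36 ± 0.11 and Rarg by -0.38 ± 0.13. In exGF-SI 2 of 33 were lower, Nr1d1 by -0.34 ± 0.09 and Nr1h2 by -0.32 ± 0.09, and 0 were higher (0 were lower without the rRNA-rich libraries). Rara and Rarg are retinoic acid receptors, Nr1d1 a repressor of the circadian clock and Nr1h2 a liver X receptor. Median log2 fold changes of the list were 0.05, 0.06 and -0.03.

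Genes reported as NR4A targets were higher in 9 of 17, 11 of 18 and 12 of 17 tested (CON-SI, GF-SI, exGF-SI), and 0 were lower, with medians of 0.48, 0.50 and 0.43. In GF-SI 1 was lower with DESeq2 and 2 were lower in the fit over 6 groups. Of all genes tested, 2.35%, 7.87% and 4.6% were higher and 1.37%, 5.86% and 3.01% lower. The list was chosen with earlier results of these data known. The genes that rose were Bdnf, Vip in exGF-SI, and genes of protein folding in the endoplasmic reticulum and its stress response, which other regulators also induce. Hspa5, the main chaperone of this compartment, rose by 0.82 ± 0.11, 0.97 ± 0.11 and 0.95 ± 0.11 in CON-SI, GF-SI and exGF-SI, and the disulfide isomerase gene Pdia4 by 0.53 ± 0.09, 0.74 ± 0.10 and 0.75 ± 0.10. Sdf2l1 rose by 1.51 ± 0.24, 0.89 ± 0.21 and 0.93 ± 0.18, and Creld2 by 0.99 ± 0.17, 0.79 ± 0.13 and 0.78 ± 0.11. The classical dopaminergic targets Th and Slc6a3 were too low to be tested in the 3 SI comparisons, at averages of 0.414 and 0.180 CPM. Without the rRNA-rich libraries 2 of these targets were higher in CON-SI and 6 in exGF-SI, beside 26 and 155 of all genes called in either direction.

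Markers of other cells and regions were counted in the same SI comparisons. Of all genes tested, 2.35%, 7.87% and 4.6% were higher in CON-SI, GF-SI and exGF-SI. In the same order 1.37%, 5.86% and 3.01% were lower. Among the 12 markers of striatum, GF-SI was lower in 2, Gpr6 by -1.11 ± 0.26 and Adora2a by -1.97 ± 0.65, where the pool GF-P1 had a summed striatal level of 538 CPM against 192 to 384 CPM in the other 3 GF pools and the 12 GF-SI animals. GF-P1 was also the GF pool lowest in Nr4a1 and Nr4a3, and without it the log2 fold change of Nr4a3 in GF-SI was 1.465, the lowest of the values with 1 library left out (the highest was 1.729). In CON-SI 0 striatal markers passed, and in exGF-SI 1 of 11 tested was higher. Of 11 amygdala markers tested, Zbtb20 and Lhx9 were lower in CON-SI (-0.83 ± 0.13 and -1.89 ± 0.46), Etv1 was lower in exGF-SI (-0.38 ± 0.07) and 0 passed in GF-SI. Of 10 microglial markers 2 were higher in CON-SI, C1qa and C1qc, 1 was lower in GF-SI, P2ry12, and 2 were lower in exGF-SI, Cx3cr1 and Csf1r. Of 10 endothelial and pericyte markers Cldn5, Pdgfrb and Kdr were lower in CON-SI, Flt1 was higher and Pdgfrb lower in GF-SI, and Cldn5 and Pdgfrb were lower in exGF-SI. Hbb-bs was the 1 of 6 blood markers that passed (0.60 ± 0.15 in CON-SI), Camk2a the 1 of 7 excitatory markers, and Sst and Vip the 2 of 7 inhibitory markers, both in exGF-SI. Vip and the amygdala, microglial, endothelial and blood genes were named after their values were seen. Astrocyte and oligodendrocyte markers (8 each) and the dopaminergic markers that could be tested held 0 calls in the 3 SI comparisons. The part of these differences in the Nr4a values was not tested.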

How the data were processed

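The authors deposited whole-number read counts per gene, without normalization, for 43629 Ensembl genes in 40 libraries. Per the labels and the study's methods, stranded, ribodepleted paired-end reads were trimmed with Trimmomatic 0.32, aligned to GRCm38.p3 with STAR 2.4.0f1 and counted with HTSeq 0.6.0 without use of strand. Since strand was not used, reads of an antisense transcript would count for the gene. A second deposited table held the authors' fold changes and p-values and was not used. Symbols came from the GENCODE vM21 annotation (42462 genes matched).

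Each pair of groups was fitted with the edgeR 4.0.16 quasi-likelihood F-test in R 4.3.3 (TMM scaling, filterByExpr, Benjamini-Hochberg over all genes tested, threshold 0.1), which follows the pairs and threshold of the study; differences between responses and the mean response came from 1 fit over 6 groups. Alternatives were DESeq2 1.42.0, RLE scaling, no filter on low counts, the fit over 6 groups (for differences between responses, over the 4 groups concerned), a correction for GC content and length, removal of libraries with over 5% Gm42418, and removal of each library in turn. The scripts were tested on simulated counts. Ratios used exact permutation over libraries, and correlations a permutation that was exact for groups under 10. Ratios, the sum without Gng2 and the oligodendrocyte sum were added after the data were seen.

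Members and gene lists were chosen with earlier results of these data known. The genes named were the members, Gm42418, up to 4 genes of each list with the smallest p in GF-SI (for immediate early, nuclear receptor and target genes also in CON-SI and exGF-SI), and the 5 genes most like each member; others are marked as named after their values were seen. Naïve libraries were pools of RNA from several animals, so p-values measure the spread between libraries. No library was a repeat of another: a chi-square test of the counts gave at least 7.21 per degree of freedom for every pair within a group. Some results for single genes of the lists are not reported here.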

Additional observations from a re-analysis of the deposited data

How the results depend on the processing

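Of the log2 fold changes of the members under alternatives, 1012 kept their direction and side of the threshold, 37 reversed, 12 lost and 4 gained the call. Without the rRNA-rich libraries Nr4a3 in CON-SI was 0.902 (adjusted p = 0.137) and Nr4a2 in exGF-SI 0.791 (0.283), both no longer called, while the mean response of Nr4a1 was 0.664 and gained the call (0.0347). In the same setting these reversed: Nr4a1 in CON-exGF (-0.321) and GF-exGF (-0.357), Nr4a3 in CON-exGF (-0.085), and the response differences of Nr4a1 for GF minus CON (0.024), exGF minus CON (0.512) and exGF minus GF (0.488) and of Nr4a3 for exGF minus CON (0.417). The correction for GC content and length reversed Nr4a1 for GF minus CON (0.0047). DESeq2 and the fit without a filter called Nr4a3 in GF-exGF (0.874 and 0.859), and the fit over 6 groups lost Nr4a2 in exGF-SI (0.771). All genes called in CON-SI numbered 566, against 26 without the rRNA-rich libraries, 961 with DESeq2 and 969 over 6 groups. In exGF-SI they numbered 1161, against 155 without the rRNA-rich libraries, 722 without a filter and 681 with the correction.

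With 1 library left out, values ran from -0.019 to 0.38 for Nr4a1 in CON-GF, -0.26 to 0.173 for Nr4a2 in CON-exGF, -0.032 to 0.409 for Nr4a2 in GF-exGF, -0.238 to 0.415 for Nr4a1, 0.669 to 0.872 for Nr4a2 and 0.656 to 0.976 for Nr4a3 in exGF-SI, -0.078 to 0.203 for Nr4a1 and -0.013 to 0.183 for Nr4a2 in CON-GF-SI, -0.316 to 0.078 for Nr4a1 in GF minus CON, -0.294 to 0.017 for Nr4a3 in exGF minus CON, -0.185 to 0.26 for Nr4a2 in exGF minus GF, and 0.295 to 0.512 for the mean response of Nr4a1, which passed without exGF-P1. Log2 ratios ran from 0.487 to 0.933 for Nr4a3 to Nr4a1 in exGF-SI, where 10 of 12 removals lost the call, from 0.712 to 1.15 for Nr4a3 to Nr4a2 in GF-SI, from -0.157 to 0.276 for Nr4a3 to Nr4a2 in exGF-SI, and for Nr4a2 to Nr4a1 from -0.427 to 0.242 in CON-SI and from -0.153 to 0.449 in GF-SI. Without the rRNA-rich libraries the ratio of Nr4a3 to Nr4a1 in exGF-SI was 0.354 and that of Nr4a2 to Nr4a1 -0.200.

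Without the 2 farthest animals r reversed for Nr4a1 with Nr4a2 in GF-SI (-0.159) and exGF-SI (0.774), Nr4a1 with Nr4a3 in CON-SI (-0.572), the striatal sum with Nr4a1 (0.0404), Nr4a2 (-0.552) and Nr4a3 (0.0138) in exGF-SI and with Nr4a3 in CON-SI (-0.201), and the claustrum sum with Nr4a1 in GF-SI (-0.158) and exGF-SI (0.0153). Without Gng2 the claustrum sum with Nr4a2 in CON-SI had r = 0.50. The causes of these changes were not tested. No paired analysis was possible because naïve and SI libraries came from different animals, the naïve ones as pools. Each member had at least 88 counts in every library, and each naïve group held 4 pools.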
